A study of Mus musculus with 12 samples.

Results

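The genes described here are 35 genes of tumor macrophages and monocytes. They were chosen by name from general knowledge of these cells, but with earlier results of these data known. All 35 were found among the 22630 genes of the deposited tables. Of the 35 names, 34 matched as written, and Spi1, which encodes the transcription factor PU.1, was found under its older symbol Sfpi1. RNA was sequenced from 12 subcutaneous tumors of KCip53-1, a line of mouse pancreatic cancer cells derived from a mouse whose alleles included Ptf1a-Cre, TREp53R270H and R26rtTa/rtTa. In these cells doxycycline (dox) switches on a p53R270H transgene together with a dsRed reporter. All 3 groups carried the same alleles and were grown in NSG mice of 8 to 10 weeks, where mature lymphocytes and NK cells are missing but macrophages and neutrophils remain. The no-dox tumors (n = 4) never received dox. The plus-dox tumors (n = 4) received 0.2 g/l dox in 5% sucrose water for 36 days, and the off-dox tumors (n = 4) received it for 33 days followed by 3 days without. These times are as labelled, whereas the study's text times dox withdrawal by the palpability of the tumors, so the stage at which dox was withdrawn is uncertain. KCip53-1 is a single line sorted for dsRed, every mouse bore 2 tumors, and the pairs that shared a host are not given in the sources used here. The p-values therefore measure the spread between tumors, some of which may come from 1 host, and an effect of dox itself cannot be told apart from that of the transgene.

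Monocytes leave the blood and mature into macrophages under signals through the receptor Csf1r, with PU.1 as the master regulator of the lineage. Macrophages take up debris through scavenger receptors and through receptors for antibodies, secrete C1q and lysozyme, and are a large part of the stroma of pancreatic tumors. Their activation is often described along an axis from Nos2, the inducible nitric oxide synthase, to Arg1, Retnla and Chi3l3, which are induced by interleukins of the type 2 response. Since whole tumors were sequenced, fewer macrophages and less RNA per macrophage cannot be told apart. Levels are given as RPKM, read counts scaled to exonic length and to the mapped reads of the tumor, which allows genes of different length to be compared.

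The 12 libraries held 19845923 to 33137609 counted reads. Of the mapped reads, the part that fell on gene models was 88.4 to 89.4% in the no-dox tumors, 82.2 to 87.1% in the plus-dox tumors and 81.1 to 85.8% in the off-dox tumors, so this technical measure set every no-dox tumor above the others, and its part in the results was not tested. The paper reports, from PCR and sequencing, that KCip53 cell lines had lost the wild-type p53 sequence and held only the mutant. The level of Trp53 should hold the transgene transcript and any endogenous transcript, that of host cells included. It was 47.7 ± 7.3 RPKM (SD, n = 4) in no-dox, 48.5 ± 6.4 RPKM in plus-dox and 44.0 ± 1.7 RPKM in off-dox tumors. These ranges overlapped, so the gene gives no check of the labels, and groups are named as labelled. Plus-dox tumor 2 and off-dox tumor 4 held little Epcam, an epithelial adhesion gene, with 7.76 and 40.9 RPKM against 72.3 to 388.3 RPKM in the other 10 tumors, and off-dox tumor 3 held the most of 6 skeletal muscle genes, with 1123 RPKM summed against 12.1 to 617.5 RPKM elsewhere.

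Together, transcripts of the 35 genes were abundant in every tumor, though the cells that made them were not measured. The 35 genes took 0.617 to 1.12% of all counted reads, with means per group of 4 tumors of 0.759% ± 0.095 (SD) without dox, 0.782% ± 0.036 on dox and 0.842% ± 0.197 after its removal. The levels spanned from Lyz2 with a mean of 1666 RPKM over 12 tumors to Marco, a scavenger receptor of resident macrophages, with 0.111 RPKM and 1 to 16 reads a tumor. Marco was the single gene of the 35 under a mean of 0.25 RPKM. The defining genes Csf1r, Cd68, Emr1 (F4/80), Aif1 (Iba1) and Laptm5 had means of 55.01, 63.9, 34.9, 34.0 and 64.3 RPKM. No tumor fell under 25.3 RPKM in any of them. The core genes Spi1 and Cd14 had lowest values of 22.5 and 49.6 RPKM. These genes were named to define the group, so their levels do not test its label.

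**Figure D1:**
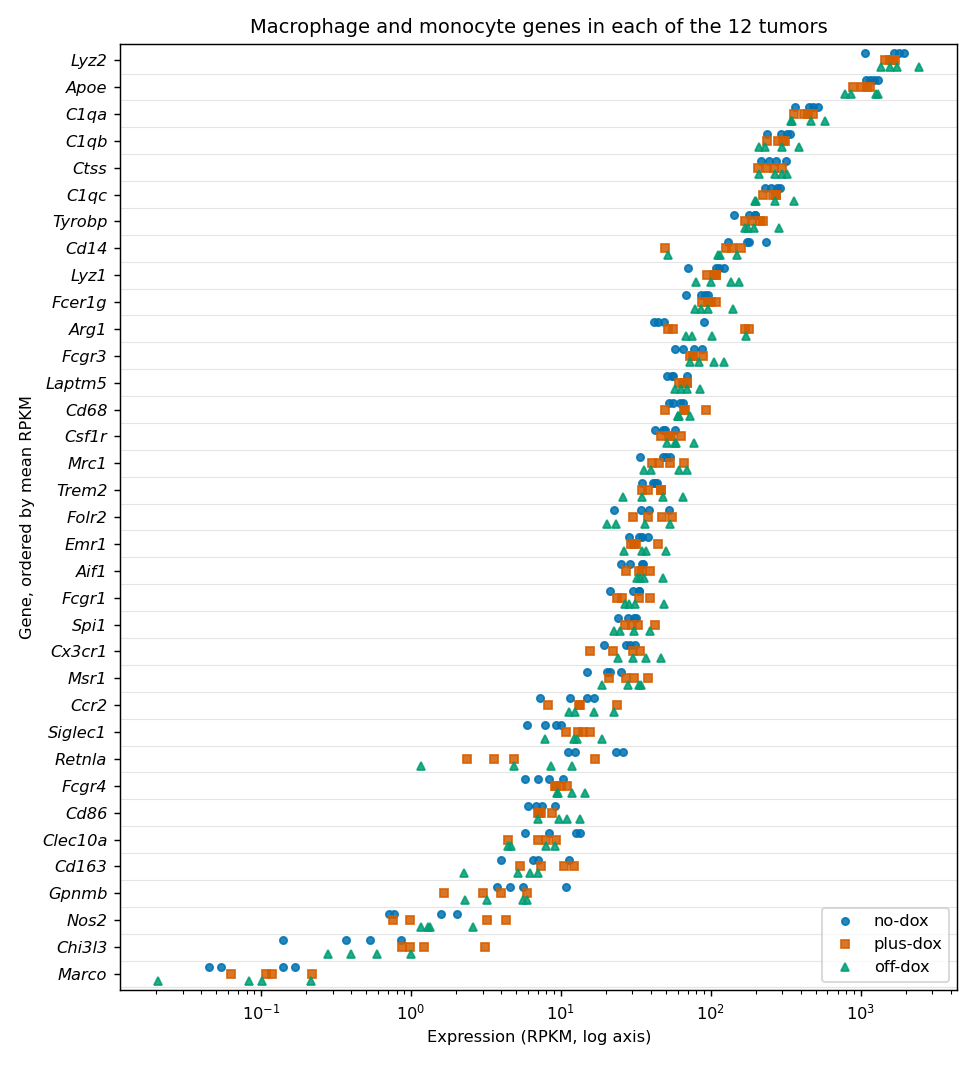
RPKM of each of the 35 genes (rows, ordered by the mean over 12 tumors) on a log axis, with 1 point per tumor and colors and shapes for the 3 groups. Lyz2 and Apoe lie highest, from 786.1 to 2462 RPKM, Marco lies under 0.25 RPKM, and the groups overlap in nearly every row.

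The 3 chains of C1q, the complement component that tissue macrophages secrete, were among the 6 highest genes and kept nearly fixed proportions. C1qa, C1qb and C1qc lie next to each other on the minus strand of chromosome 4, in mm9 at chr4:136451831-136454759, chr4:136436061-136442092 and chr4:136445717-136448829. The level of C1qa was 483.6, 517.4, 448.8 and 367.1 RPKM in the no-dox tumors, 482.5, 416.9, 357.2 and 442.7 RPKM in the plus-dox tumors, and 468.7, 348.3, 581.5 and 341.9 RPKM in the off-dox tumors. The groups overlapped almost fully. The ratio of C1qa to C1qb ran from 1.47 to 1.63 over the 12 tumors with a median of 1.52, and that of C1qc to C1qb from 0.853 to 0.961, while C1qa itself varied 1.70-fold between tumors. The fitted log2 differences of the 3 chains lay between -0.09 and 0.05 in all 3 comparisons, with standard errors (SE) of 0.16 to 0.17. With errors of this size a small change cannot be told from none, so the values do not show that the groups were equal.

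PU.1 binds purine-rich sites in the regulatory DNA of most of the genes listed here, which have in common the letters GAGGAA, read on either strand. The window from 250 bases before to 50 bases after the start site, from RefSeq on GRCm38.p6, was at hand for 23 of the 35 genes. Csf1r, Spi1, Emr1, Cd14, Tyrobp, C1qa, Msr1, Clec10a, Siglec1, Arg1, Nos2 and Cd86 had no window. The letters stood in at least 1 window of 14 of these 23 genes (60.9%), beside 31.2% of 27025 genes with such windows in RefSeq. Counted by window, they stood in 16 of 27 (59.3%) beside 28.3% of 32851. A longer form with GT after these letters, which contains the shorter one, stood in windows of 4 of the 23 genes (17.4%), namely Fcgr4, C1qc, Ctss and Retnla, beside 3.69% of genes. The windows of 4 genes are shown, on the strand of the gene, with the 6 letters or their reverse complement in capitals: those of C1qb and C1qc, whose levels moved together, that of Fcgr4, the Fc receptor with the smallest p-value below, and that of Retnla, whose level did not follow the other genes. The C1qb window is on the minus strand at chr4:136886151-136886450, the C1qc window on the minus strand at chr4:136892865-136893164, the Fcgr4 window on the plus strand at chr1:171018676-171018975, and the Retnla window on the plus strand at chr16:48842359-48842658.
C1qb window: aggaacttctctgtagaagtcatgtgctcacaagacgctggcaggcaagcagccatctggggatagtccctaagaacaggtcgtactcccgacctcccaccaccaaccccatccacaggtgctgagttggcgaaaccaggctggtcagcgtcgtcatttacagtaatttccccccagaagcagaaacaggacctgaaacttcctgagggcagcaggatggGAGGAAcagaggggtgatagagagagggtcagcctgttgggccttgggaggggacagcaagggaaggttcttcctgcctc
C1qc window: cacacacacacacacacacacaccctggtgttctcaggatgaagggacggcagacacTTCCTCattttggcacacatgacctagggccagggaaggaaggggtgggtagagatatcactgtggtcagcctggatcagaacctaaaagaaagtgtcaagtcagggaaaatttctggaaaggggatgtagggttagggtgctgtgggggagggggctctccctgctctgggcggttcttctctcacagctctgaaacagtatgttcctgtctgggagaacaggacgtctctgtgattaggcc
Fcgr4 window: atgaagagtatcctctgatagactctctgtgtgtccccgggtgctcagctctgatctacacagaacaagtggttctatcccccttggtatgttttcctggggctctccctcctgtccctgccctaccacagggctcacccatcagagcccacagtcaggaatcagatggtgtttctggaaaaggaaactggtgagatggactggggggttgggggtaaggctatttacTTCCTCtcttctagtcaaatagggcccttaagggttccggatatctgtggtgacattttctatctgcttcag
Retnla window: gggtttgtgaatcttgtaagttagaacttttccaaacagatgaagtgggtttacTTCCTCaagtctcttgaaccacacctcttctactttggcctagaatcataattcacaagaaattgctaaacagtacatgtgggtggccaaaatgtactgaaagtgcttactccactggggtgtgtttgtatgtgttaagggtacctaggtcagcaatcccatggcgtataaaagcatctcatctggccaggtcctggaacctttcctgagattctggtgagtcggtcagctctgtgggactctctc

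The first letter of the match lay 30 bases before the start site in C1qb, 193 in C1qc, 22 in Fcgr4 and 196 in Retnla. A match describes the letters only. It does not show that PU.1 is bound there, and no binding was measured in these tumors.

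Secreted and lysosomal products held the highest levels. Lyz2, the lysozyme of macrophages and neutrophils, had 1676, 1794, 1937 and 1072 RPKM in the no-dox tumors, 1703, 1643, 1442 and 1567 RPKM in the plus-dox tumors, and 1574, 1755, 2462 and 1366 RPKM in the off-dox tumors. No-dox tumor 4 was lowest and off-dox tumor 3 highest of all. The neighboring gene Lyz1 stood at 70.1 to 153.6 RPKM with the same highest and lowest tumor, and the ratio of Lyz2 to Lyz1 was 12.9 to 17.1. The 2 lysozyme genes share sequence: 16.1% of the 50-base stretches of Lyz1 transcripts also occur in another gene, so their reads are uncertain and part of this fixed ratio may be shared reads. Apoe, the lipid carrier of lipid-laden macrophages, ran from 786.1 to 1311 RPKM and Ctss, the cathepsin that trims the class II invariant chain, from 207.2 to 322.4 RPKM. Gpnmb, a glycoprotein of lipid-laden macrophages, was low and variable, from 1.66 RPKM in plus-dox tumor 2 to 10.8 RPKM in no-dox tumor 2. In plus-dox against no-dox tumors the log2 difference was above 0 for 1 of these 5 genes and below 0 for 4. None was called (smallest adjusted p = 0.452, edgeR), beside 0% of all genes.

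Among the core genes, Cd14, the co-receptor for bacterial lipopolysaccharide, ran apart from the rest. Cd14 stood at 175.2, 179.2, 129.5 and 232.5 RPKM in the no-dox tumors, at 158.7, 49.6, 139.1 and 125.7 RPKM in the plus-dox tumors, and at 149.4, 114.3, 111.8 and 52.0 RPKM in the off-dox tumors. The highest value was in no-dox tumor 4, the tumor lowest in 15 of the 35 genes, and the lowest values were in plus-dox tumor 2 and off-dox tumor 4, the tumors low in Epcam. The log2 difference was -0.59 (SE 0.35, adjusted p = 0.452, edgeR) in plus-dox and -0.73 (SE 0.35, adjusted p = 0.266) in off-dox against no-dox tumors. With both left out the differences were -0.34 and -0.50. The other 6 core genes had fitted log2 differences of 0.03 to 0.34 in both comparisons. None of them was called, beside 0% of all genes in the first and 1.34% in the second. Emr1 turned to -0.10 in plus-dox against no-dox tumors without plus-dox tumor 4, and Spi1 to -0.09 in off-dox against no-dox tumors without off-dox tumor 3. Csf1r, the receptor for the macrophage growth factors, stood at 48.2, 57.6, 42.6 and 49.1 RPKM in no-dox and 58.1, 59.0, 77.5 and 51.0 RPKM in off-dox tumors, a log2 difference of 0.34 (SE 0.13, unadjusted p = 0.022, adjusted p = 0.178, edgeR) that was 0.22 without off-dox tumor 3. Off-dox tumor 4 lay within the no-dox range. Csf1r was described in full after its values were seen.

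Summed levels of epithelial genes also differed between tumors. The 9 epithelial genes (keratins, claudins, Epcam, Cdh1 and Muc1) summed to 2317 to 3171 RPKM in no-dox, 1364 to 2069 RPKM in plus-dox and 1084 to 2703 RPKM in off-dox tumors, so every plus-dox sum was below every no-dox sum. The lowest sum was in off-dox tumor 3, where Cd14 stood at 111.8 RPKM. Off-dox tumor 4, low in Epcam, held 752.3 RPKM of Krt18, above the median of that gene (692.8 RPKM). The part of epithelial genes in the level of Cd14 was not tested. None of the 9 was called in any comparison, beside 1.34% of all genes in off-dox against no-dox tumors and 0% in the others. Krt8, a simple-epithelium keratin, had the smallest p, with a log2 difference of -0.74 (SE 0.22, adjusted p = 0.322, edgeR) in plus-dox against no-dox tumors.

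Of the 6 Fc receptor and signaling adaptor genes, 0 were called in any comparison. Of all genes, 1.34% were called in off-dox against no-dox tumors and 0% in each of the others. Tyrobp (DAP12), an adaptor for several myeloid receptors, stood at 196.2, 178.7, 196.1 and 143.4 RPKM in no-dox, at 214.1, 222.8, 168.6 and 188.6 RPKM in plus-dox and at 193.2, 169.9, 287.0 and 176.3 RPKM in off-dox tumors. Apart from the high off-dox tumor 3 and the low no-dox tumor 4, the 3 groups overlapped. Its ratio to Fcer1g, the gamma chain shared by the activating Fc receptors, was 1.74 to 2.26. Fcgr4, a receptor for immunoglobulin G, stood at 8.30, 7.04, 10.3 and 5.72 RPKM in no-dox, at 10.1, 10.9, 9.10 and 9.32 RPKM in plus-dox and at 9.35, 9.59, 14.4 and 11.8 RPKM in off-dox tumors. No-dox tumor 3 lay within the ranges of the other groups. The log2 difference of Fcgr4 was 0.56 (SE 0.19, unadjusted p = 0.014, adjusted p = 0.149, edgeR) in off-dox and 0.34 (SE 0.19, adjusted p = 0.439) in plus-dox against no-dox tumors. The log2 difference of Fcgr3 in off-dox against no-dox tumors was 0.44 (SE 0.17, unadjusted p = 0.025, adjusted p = 0.183, edgeR), and 10.2% of its 50-base stretches also occur in its relative Fcgr2b, so its level is uncertain. With all 12 tumors the fitted log2 differences of the 6 genes were 0.03 to 0.56 in the 3 comparisons, but the sign rested on single tumors for 4 of them. Without off-dox tumor 3, off-dox against plus-dox tumors gave -0.05 for Fcgr1, -0.15 for Fcer1g, -0.12 for Tyrobp and -0.17 for Trem2, a lipid-sensing receptor, and off-dox against no-dox tumors gave -0.14 for Trem2. In plus-dox against no-dox tumors Fcgr1 turned to -0.08 without plus-dox tumor 1 and Trem2 to -0.02 without no-dox tumor 4.

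Neutrophils also express several of these receptors. Of 12 neutrophil genes, Cxcr2 and Csf3r, receptors for neutrophil chemokines and for the granulocyte growth factor, were called higher in off-dox than no-dox tumors, by 0.90 and 0.78 on the log2 scale (adjusted p = 0.083 for both, edgeR). In that comparison 1.34% of all genes were called. Cxcr2 was 1.37 ± 0.13 RPKM in no-dox, 2.50 ± 0.31 RPKM in plus-dox and 2.51 ± 0.69 RPKM in off-dox tumors (SD, n = 4), and each of the 8 dox-exposed tumors exceeded all 4 without dox. The 12 genes summed to 42.7 to 59.8 RPKM in no-dox, 45.2 to 73.0 RPKM in plus-dox and 33.5 to 67.2 RPKM in off-dox tumors. The granule genes Camp and Ngp were at 0 in at least 3 tumors each. Ltf, another granule gene, ran from 0.156 RPKM in plus-dox tumor 2 to 23.25 RPKM in no-dox tumor 2. The latter held the highest no-dox sum, so the sums rest in part on Ltf. Epcam was lowest and highest in the same tumors, at 7.76 and 388.3 RPKM. Krt8 was instead lowest in off-dox tumor 3 and highest in no-dox tumor 4. The neutrophil genes S100a8 and S100a9 were highest in plus-dox tumor 2, at 16.5 and 31.2 RPKM. The cell source of Ltf was not tested. The part of neutrophils in the Fc receptor levels was not tested. Lymphoid genes were low, with 7 of 10 under a mean of 0.25 RPKM and sums of 2.71 to 8.31 RPKM in a tumor. Of the others, Cd4 ran from 1.99 to 5.14 RPKM and Ncr1, an NK cell gene, from 0.221 to 2.05 RPKM. The log2 difference was above 0 for 8 of the 10 genes in plus-dox and for 10 in off-dox against no-dox tumors. The 9 dendritic cell genes summed to 7.31 to 16.6 RPKM in a tumor. In plus-dox against no-dox tumors 0 were called and 0 had an unadjusted p under 0.05 (edgeR), beside 0% and 13.7% of all genes. In off-dox against no-dox tumors these counts were 0 and 2, beside 1.34% and 20.4%. In off-dox against plus-dox tumors they were 0 and 0, beside 0% and 3.06%.

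Among the scavenger and lectin receptors, Siglec1 had the smallest p of the 35 genes in plus-dox against no-dox tumors. It encodes sialoadhesin (CD169), a sialic acid receptor of resident macrophages that interferon induces. Siglec1 stood at 7.80, 9.27, 10.0 and 5.96 RPKM in no-dox, at 10.8, 14.0, 13.1 and 15.6 RPKM in plus-dox and at 7.79, 12.3, 18.8 and 12.8 RPKM in off-dox tumors. The lowest plus-dox value exceeded the highest no-dox value, while off-dox tumor 1 lay inside the no-dox range. The log2 difference was 0.71 (SE 0.24, unadjusted p = 0.012, adjusted p = 0.326, edgeR) in plus-dox and 0.68 (SE 0.24, unadjusted p = 0.015, adjusted p = 0.152) in off-dox against no-dox tumors, and -0.03 (SE 0.24, unadjusted p = 0.900) in off-dox against plus-dox tumors. The second difference was 0.45 without off-dox tumor 3. The first comparison was called by limma-voom with tumor weights (adjusted p = 0.097), which called 0.638% of all genes, and not by DESeq2 (adjusted p = 0.153), which called 0.732%. The second was called by both (adjusted p = 0.092 and 0.074), beside 3.65% of all genes for limma-voom and 3.52% for DESeq2. The first 2 comparisons share the 4 no-dox tumors, so they are not separate evidence.

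Msr1, the class A scavenger receptor for modified lipoproteins, resembled Siglec1. It stood at 21.3, 20.4, 25.04 and 15.0 RPKM in no-dox, at 20.8, 38.4, 30.9 and 27.3 RPKM in plus-dox and at 18.7, 33.1, 34.2 and 27.9 RPKM in off-dox tumors. Tumors 2, 3 and 4 of each dox-exposed group lay above the no-dox range, and tumor 1 of each lay inside it. The log2 differences were 0.54 (SE 0.23, unadjusted p = 0.039) and 0.51 (SE 0.23, unadjusted p = 0.050), with adjusted p of 0.351 and 0.244 by edgeR. Mrc1, the mannose receptor (CD206), stood at 47.8, 50.2, 53.4 and 33.6 RPKM in no-dox, at 40.8, 53.7, 45.2 and 66.7 RPKM in plus-dox and at 35.7, 61.0, 69.3 and 40.0 RPKM in off-dox tumors. The 3 groups overlapped for Mrc1. Cd163, the receptor for hemoglobin bound to haptoglobin, was lowest in off-dox tumor 1 (2.25 RPKM) and highest in plus-dox tumor 2 (12.3 RPKM), and off-dox against plus-dox tumors gave the most negative difference of this group, -0.75 (SE 0.39, unadjusted p = 0.075), which was -0.50 without off-dox tumor 1. Folr2, the folate receptor of resident macrophages, ran from 20.3 to 54.8 RPKM. Clec10a, a galactose-type lectin, ran from 4.44 to 13.5 RPKM and shares 14.3% of its 50-base stretches with its relative Mgl2.

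**Figure D2:**
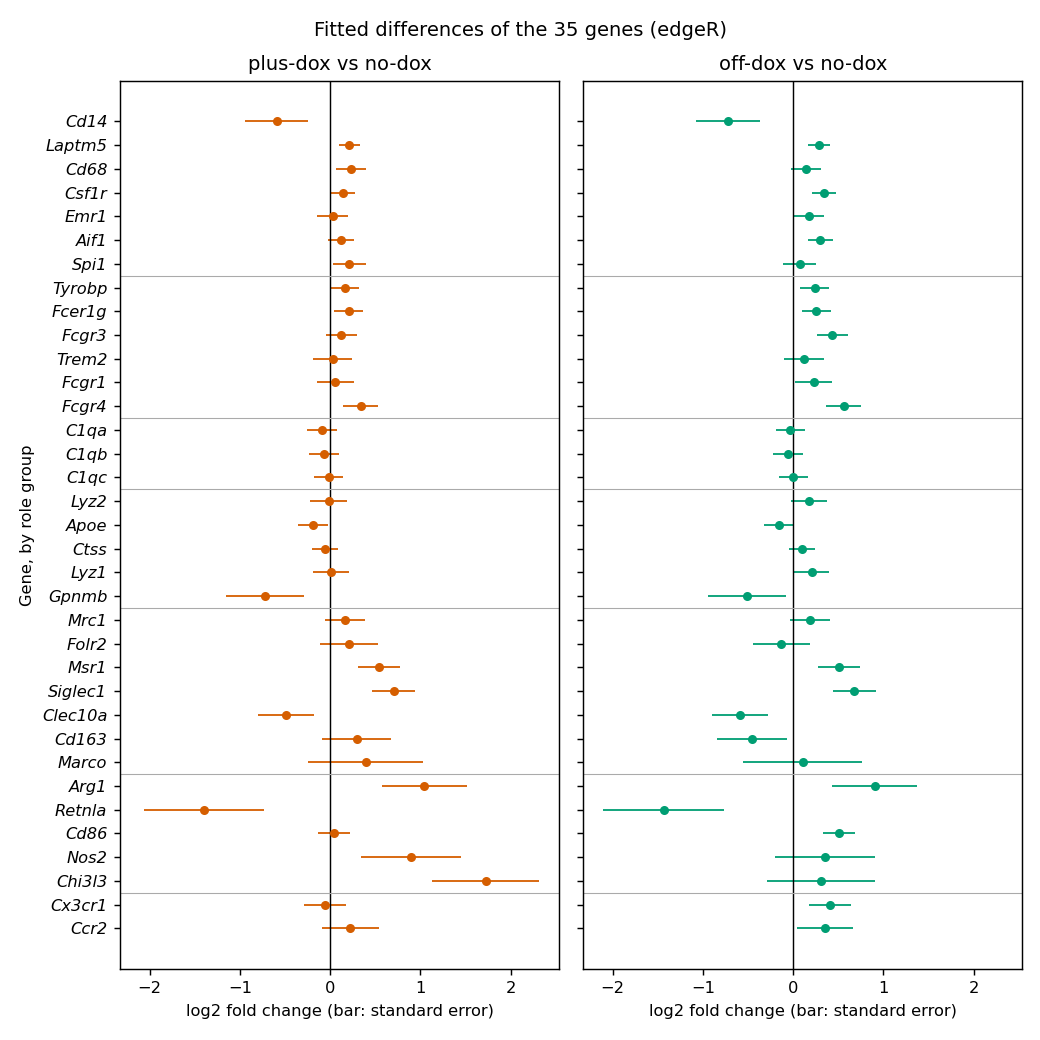
Fitted log2 fold changes of the 35 genes in plus-dox (left) and off-dox (right) against no-dox tumors, with bars for 1 standard error on either side and lines between the role groups. Siglec1, Msr1 and Arg1 lie right of 0 in both panels and Cd14, Clec10a and Retnla left of 0, while C1qa, C1qb and C1qc lie within 0.09 of 0.

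Of the 5 activation genes, Arg1, Retnla, Nos2 and Chi3l3 varied 4.30-fold to 22.25-fold between tumors and Cd86 2.22-fold. Arg1, which converts arginine to ornithine, stood at 44.4, 48.8, 90.1 and 42.1 RPKM in no-dox, at 51.7, 168.0, 180.9 and 55.7 RPKM in plus-dox and at 68.7, 170.9, 74.5 and 101.1 RPKM in off-dox tumors. Plus-dox tumors 2 and 3 and off-dox tumor 2 formed the upper end, and no-dox tumor 3 lay above 4 dox-exposed tumors. The log2 difference was 1.04 (SE 0.47, unadjusted p = 0.047, adjusted p = 0.360, edgeR) in plus-dox and 0.90 (SE 0.47, adjusted p = 0.298) in off-dox against no-dox tumors. The second was 0.56 without off-dox tumor 2, and the first was 0.70 without plus-dox tumor 3. Nos2, which uses the same substrate, was low at 0.713 to 4.31 RPKM, and its 3 highest tumors were the 3 highest for Arg1.

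Retnla and Chi3l3, both secreted by macrophages under interleukin 4, each had a pattern of their own. Retnla (also called Fizz1), described in full after its values were seen, stood at 26.1, 23.2, 11.2 and 12.5 RPKM in no-dox, at 4.84, 3.58, 2.37 and 17.0 RPKM in plus-dox and at 4.84, 11.8, 8.54 and 1.17 RPKM in off-dox tumors. Plus-dox tumor 4 and off-dox tumor 2 lay inside the no-dox range. The log2 differences of -1.40 (SE 0.67, unadjusted p = 0.058) and -1.44 (SE 0.67, unadjusted p = 0.053) were the most negative of the 35 genes in these comparisons, with adjusted p of 0.377 and 0.249 by edgeR. The first was -2.32 without plus-dox tumor 4 and -1.12 without plus-dox tumor 3. The second was -1.88 without off-dox tumor 2 and -1.09 without off-dox tumor 4. Adipocytes can also make Retnla, and 6 adipocyte genes ran from 14.1 to 1082 RPKM summed in no-dox, 25.9 to 681.3 RPKM in plus-dox and 34.8 to 316.9 RPKM in off-dox tumors. The adipocyte sum was highest in no-dox tumor 1, the tumor highest in Retnla. Within the plus-dox group this sum was highest in tumor 4, again the highest of its group in Retnla. Other tumors went the other way. No-dox tumor 2, with 54.8 RPKM of adipocyte genes, held 23.2 RPKM of Retnla. No-dox tumor 3, with 886.3 RPKM, held the lowest Retnla of the no-dox group (11.2 RPKM). Off-dox tumor 4, the highest of its group with 316.9 RPKM, held the lowest Retnla of all 12 tumors (1.17 RPKM). The part of adipocytes in this gene was not tested.

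Chi3l3 (Ym1), a chitinase-like lectin, was low, with 8 to 157 reads a tumor. It stood at 0.537, 0.367, 0.858 and 0.140 RPKM in no-dox, at 0.871, 3.11, 0.990 and 1.23 RPKM in plus-dox and at 0.397, 0.591, 0.278 and 0.997 RPKM in off-dox tumors. The plus-dox RPKM values were all above the no-dox values, although plus-dox tumor 1 and no-dox tumor 3 differed by little. On log2 counts scaled to library size with TMM, these groups overlapped. The log2 difference was 1.72 (SE 0.59, unadjusted p = 0.013, adjusted p = 0.326, edgeR) in plus-dox against no-dox tumors and -1.42 (SE 0.59, unadjusted p = 0.033, adjusted p = 1.0) in off-dox against plus-dox tumors. Without plus-dox tumor 2 these were 1.12 and -0.82. The gene shares 17.9% of its 50-base stretches with its near-copy Chi3l4 and is therefore uncertain.

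Cd86, a co-stimulatory ligand of antigen-presenting cells, was set apart by the off-dox tumors. It stood at 7.52, 6.78, 9.13 and 6.04 RPKM in no-dox, at 7.13, 6.99, 7.33 and 8.73 RPKM in plus-dox and at 9.76, 11.04, 13.4 and 7.05 RPKM in off-dox tumors. Off-dox tumors 1, 2 and 3 lay above all 8 other tumors, and off-dox tumor 4 lay among them. The log2 difference was 0.51 (SE 0.18, unadjusted p = 0.016, adjusted p = 0.157, edgeR) against no-dox and 0.47 (SE 0.18, unadjusted p = 0.024, adjusted p = 1.0) against plus-dox tumors. limma-voom with tumor weights called the first (0.60, adjusted p = 0.043), beside 3.65% of all genes, and DESeq2, which called 3.52%, did not.

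**Figure D3:**
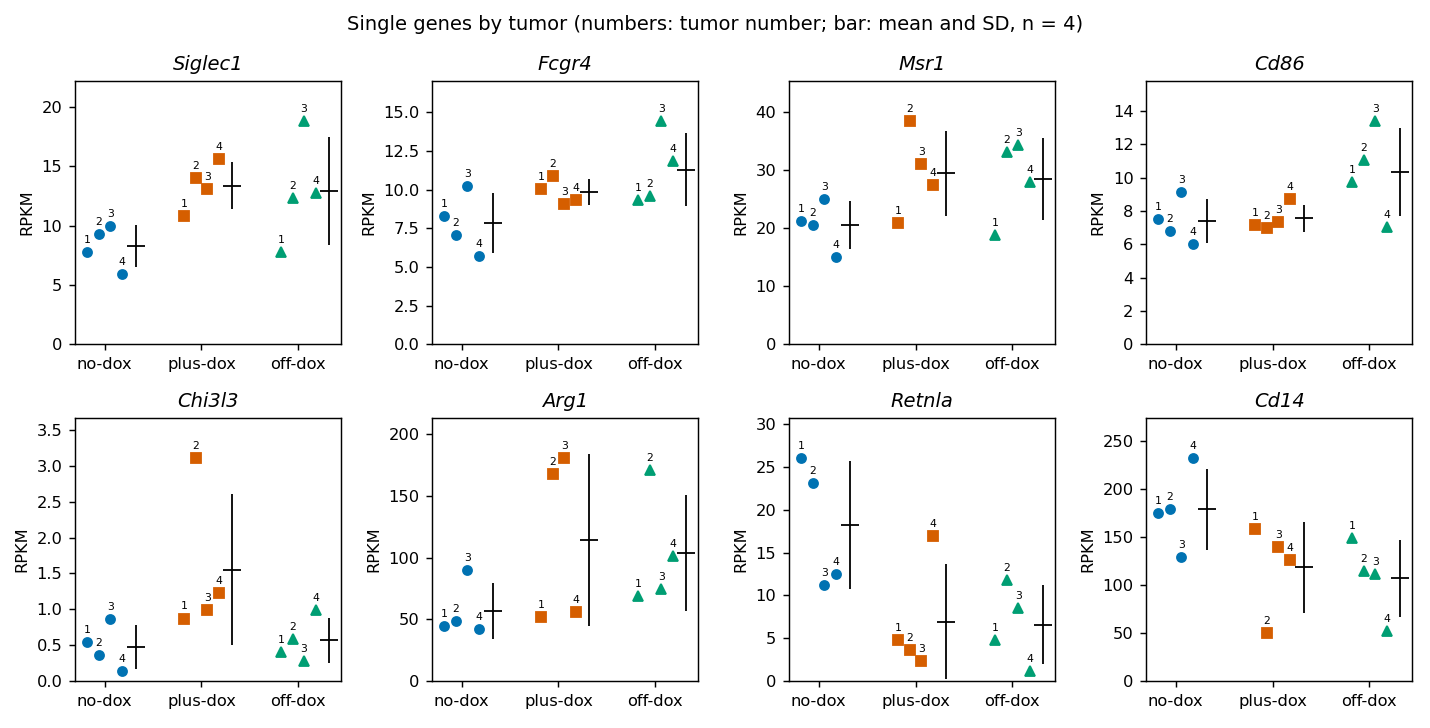
RPKM of 8 genes in each tumor, with the tumor number above each point and the mean and SD (n = 4) beside each group. Plus-dox tumors lie above no-dox tumors for Siglec1 and Chi3l3, 3 off-dox tumors lie above all others for Cd86, and Arg1, Retnla and Cd14 spread widely within groups.

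Of the chemokine receptors, Cx3cr1, the fractalkine receptor of patrolling monocytes and resident macrophages, stood at 29.0, 31.0, 19.4 and 27.0 RPKM in no-dox, at 30.3, 15.7, 22.1 and 33.5 RPKM in plus-dox and at 37.0, 30.2, 46.4 and 24.2 RPKM in off-dox tumors. The groups overlapped, and the log2 difference was 0.46 (SE 0.23, unadjusted p = 0.070) in off-dox against plus-dox tumors and 0.29 without off-dox tumor 3. Ccr2, the receptor by which inflammatory monocytes follow Ccl2, ran from 7.29 RPKM in no-dox tumor 4 to 23.8 RPKM in plus-dox tumor 4, with log2 differences of 0.22 (SE 0.31) in plus-dox and 0.35 (SE 0.31) in off-dox against no-dox tumors. The first turned to -0.09 without plus-dox tumor 4, and the second was 0.14 without off-dox tumor 3.

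Counted together by edgeR, the 35 genes passed each threshold at or below the rate of all genes in both comparisons with no-dox tumors. A call required an adjusted p under 0.1 and a change of more than 1.5-fold, and the gene had to average over 0.25 RPKM in the 2 groups and be longer than 250 bp. By edgeR, 0 of 35 were called in plus-dox against no-dox tumors, where 0% of 17561 genes were called. DESeq2 called 0 of the 35, beside 0.732% of all genes, and limma-voom 1 (Siglec1), beside 0.638%. At an unadjusted p under 0.05 by edgeR, 4 of 35 were higher and 0 lower, or 11.4%, beside 13.7% of all genes. At the same limit DESeq2 and limma-voom each gave 4 higher and 1 lower, or 14.3% of the 35, without a count over all genes. For 2 of 35 (Siglec1 and Chi3l3) the RPKM ranges of these groups were apart, beside 7.77% of all genes. The median log2 difference of the 35 was 0.13, beside 0.01 for all genes, and 24 of 35 were above 0.

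In off-dox against no-dox tumors, 0 of 35 were called by edgeR, beside 1.34% of all genes (235 genes, 181 higher and 54 lower), with 1 of 35 by DESeq2 (Siglec1), beside 3.52%, and 2 by limma-voom (Siglec1 and Cd86), beside 3.65%. At an unadjusted p under 0.05 by edgeR, 7 of 35 were higher and 0 lower, or 20%, beside 20.4% of all genes. These 7 were Csf1r, Laptm5, Fcgr3, Fcgr4, Msr1, Siglec1 and Cd86. At the same limit DESeq2 and limma-voom each gave 8 higher and 2 lower, or 28.6% of the 35, without a count over all genes. The groups did not overlap for 0 of 35, beside 11.4% of all genes. The median was 0.18, beside 0.01 for all genes, with 26 of 35 above 0, and it fell to 0.02 without off-dox tumor 3. Without off-dox tumor 1, Siglec1, Fcgr4 and Msr1 were called (adjusted p = 0.045, 0.093 and 0.098, edgeR), beside 4.51% of 17501 genes in that fit.

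In off-dox against plus-dox tumors, which compares withdrawal with continued dox, 0 of 35 were called, beside 0% of all genes. DESeq2 called 0 of the 35, beside 0.0343% of all genes, and limma-voom 0, beside 0%. At an unadjusted p under 0.05 by edgeR there was 1 higher (Cd86) and 1 lower (Chi3l3), or 5.71%, beside 3.06% of all genes. At the same limit DESeq2 gave 1 higher and 1 lower and limma-voom 2 higher and 1 lower, without a count over all genes. The groups did not overlap for 0 of 35, beside 1.49%. The median log2 difference was 0.05 and turned to -0.12 without off-dox tumor 3.

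A few tumors were high or low in many of the genes at once. Off-dox tumor 3 was the highest of 12 in 21 of the 35 genes and above the gene's median in 31, with the 35 genes at 1.12% of its reads. No-dox tumor 4 was the lowest in 15 and above the median in 4, with 0.617%. Off-dox tumor 4 was the lowest in 5 and above the median in 6, with 0.655%, so the highest and one of the low tumors came from the same group. The 7 core genes had geometric means of 50.7 ± 4.8 RPKM in no-dox, 51.4 ± 3.7 RPKM in plus-dox and 52.4 ± 9.5 RPKM in off-dox tumors (SD, n = 4). These hold Cd14, which ran apart from the rest. With Csf1r and Cd14 left out, the geometric means were 34.55 to 45.3 RPKM in no-dox tumors. They were 39.11 to 48.44 RPKM in plus-dox and 39.25 to 56.51 RPKM in off-dox tumors, so the ranges overlapped.

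**Figure D4:**
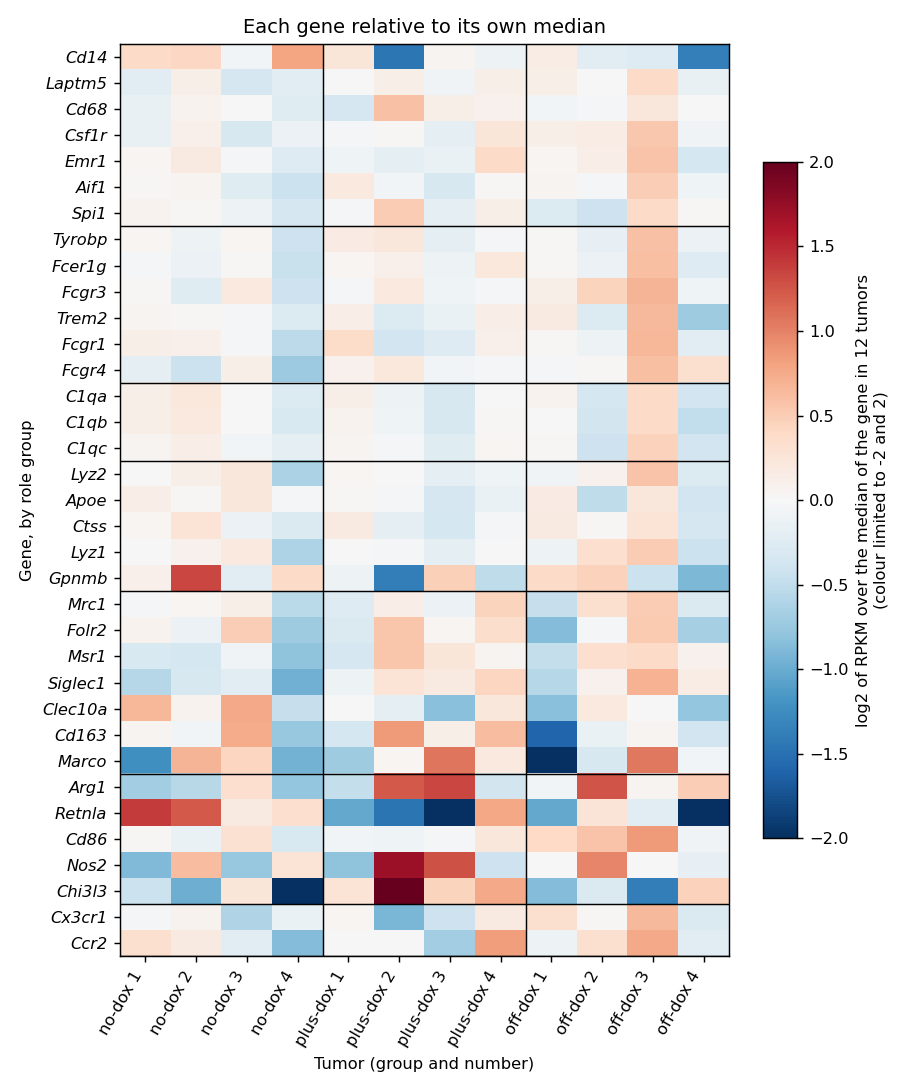
log2 of each gene's RPKM over its own median in the 12 tumors (columns), by role group (rows), with colors limited to -2 and 2. Off-dox tumor 3 is above the median in 31 genes and no-dox tumor 4 in 4, and Cd14, Gpnmb, Retnla and Chi3l3 are not above their median in off-dox tumor 3.

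Each gene was also divided by the geometric mean of the 7 core genes of its tumor, which sets it beside those genes and a core gene partly beside itself. For 1 of 35 genes (Laptm5) this ratio was then apart between plus-dox and no-dox tumors, beside 7.29% of all genes. Between off-dox and no-dox tumors it was apart for 5 of 35, beside 7.86%, with Csf1r, Aif1, Laptm5 and Cx3cr1 higher and Retnla lower in off-dox tumors, and between off-dox and plus-dox tumors for 1 (Cd86, higher), beside 0.985%. Csf1r, Aif1, Laptm5 and Cd14 are among the 7 divisors, and Cd14 had its lowest values in dox-exposed tumors, which raises the ratios there. With Csf1r and Cd14 left out of the divisor, the groups did not overlap for Siglec1 alone in plus-dox against no-dox tumors, beside 8.3% of all genes, and for Retnla alone in off-dox against no-dox tumors, beside 10.3%. Between off-dox and plus-dox tumors 0 of 35 were then apart, beside 1.08%, so Cd86 was no longer among them. Retnla relative to the 7 genes was 0.353 ± 0.124 (SD, n = 4) in the no-dox group against 0.129 ± 0.116 for plus-dox and 0.122 ± 0.088 for off-dox.

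Of 9 growth factor and chemokine genes that macrophages, monocytes or neutrophils respond to, 4 were highest in the same tumor. Csf1, a ligand of Csf1r, was 39.6 RPKM in off-dox tumor 3 against 16.5 to 31.3 RPKM in the other 11 tumors. Ccl2, the main ligand of Ccr2, was 59.3 RPKM in that tumor against 18.3 to 44.6 RPKM, Ccl7 was 93.3 RPKM against 23.0 to 60.3 RPKM, and Ccl12 was 153.8 RPKM against 38.7 to 97.7 RPKM. All 4 were thus highest in the tumor with the most macrophage transcripts. Plus-dox tumor 4 was second for all 4 and held the highest Ccr2. Il34, the second ligand of Csf1r, was instead highest in off-dox tumor 4 (31.5 RPKM), and Ccl8 in no-dox tumor 3 (1032 RPKM). Cx3cl1, the ligand of Cx3cr1, was highest in no-dox tumor 4 (26.8 RPKM) and stood at 10.2 RPKM in off-dox tumor 3. Csf2 and Csf3 were highest in plus-dox tumor 2 and lowest in plus-dox tumor 4. The part of these genes in the macrophage levels was not tested. Of 9 such genes 0 were called in any comparison by edgeR, beside 1.34% of all genes in off-dox against no-dox tumors and 0% in the others. At an unadjusted p under 0.05 there were 0 in each. The shares of all genes were 13.7% in plus-dox against no-dox, 20.4% in off-dox against no-dox and 3.06% in off-dox against plus-dox tumors.

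**Figure D5:**
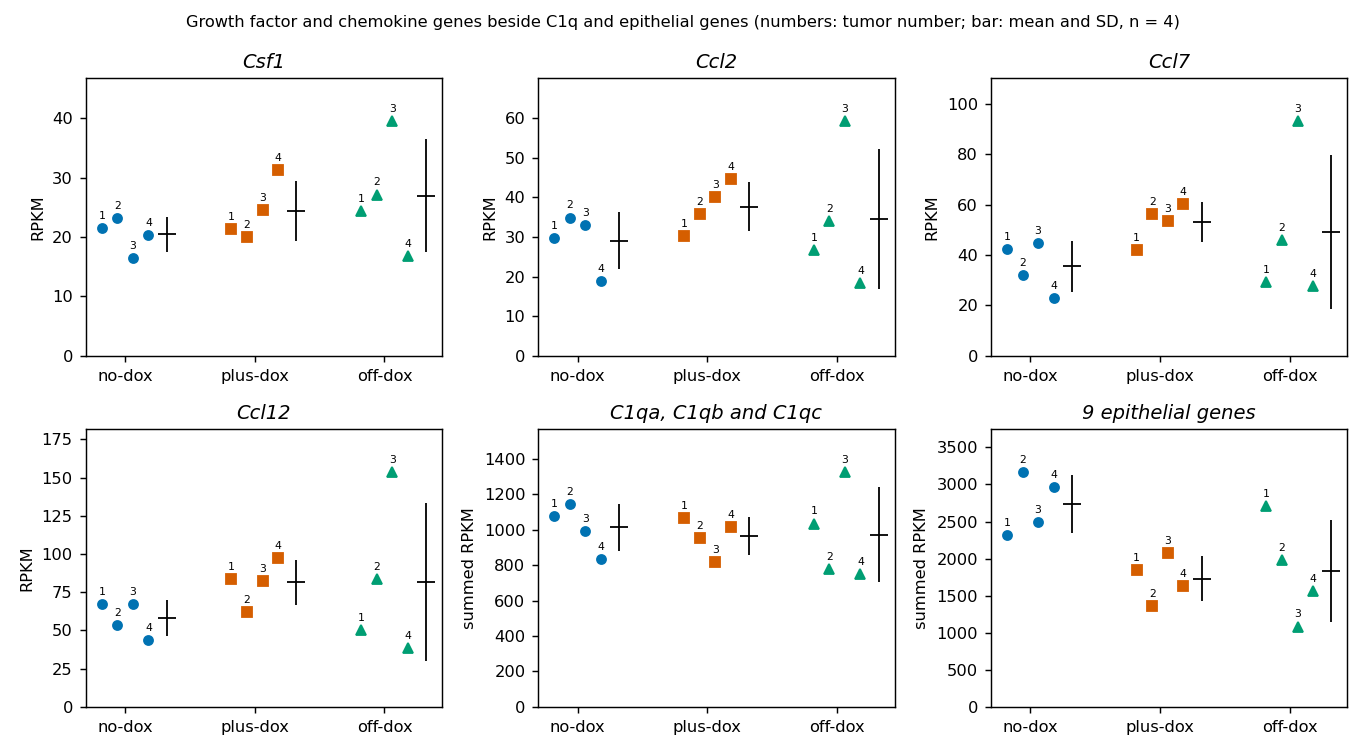
RPKM of Csf1, Ccl2, Ccl7 and Ccl12 and summed RPKM of the 3 C1q genes and of 9 epithelial genes in each tumor, with the tumor number above each point and the mean and SD (n = 4) beside each group. Off-dox tumor 3 is highest in the first 5 panels and lowest in the epithelial panel, at 1084 RPKM.

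A wider list of 44 other phagocyte genes held 2 calls, both in off-dox against no-dox tumors, where 1.34% of all genes were called. Clec7a (dectin-1), a receptor for fungal glucans, stood at 17.1, 23.4, 18.1 and 14.0 RPKM in no-dox, at 24.2, 20.7, 16.2 and 16.5 RPKM in plus-dox and at 30.2, 44.7, 24.6 and 33.6 RPKM in off-dox tumors. Every off-dox tumor lay above the other 8, with a log2 difference of 0.91 (SE 0.20, adjusted p = 0.083, edgeR) against no-dox and 0.80 (SE 0.20, unadjusted p = 0.0017, adjusted p = 1.0) against plus-dox tumors. Clec4e (Mincle), a receptor for mycobacterial and cell-death ligands, was higher by 1.25 (SE 0.34, adjusted p = 0.097) and overlapped between the groups. Of the 44 genes 28 were above 0 with a median of 0.22, and 11 had an unadjusted p under 0.05, 9 of them higher, beside 20.4% of all genes. Ptprc (CD45), carried by all leukocytes, and Irf8, a regulator of monocytes and dendritic cells, were higher by 0.55 and 0.50 (adjusted p = 0.085 and 0.083), which is under the 1.5-fold limit. Cd4, a T cell gene that some dendritic cells express too, was called at 0.73 (adjusted p = 0.093), with Cd3e at 0 to 0.149 RPKM. In plus-dox against no-dox tumors 5 of the 44 genes had an unadjusted p under 0.05 and 0 were called, beside 13.7% and 0% of all genes. In off-dox against plus-dox tumors these counts were 4 and 0, beside 3.06% and 0%.

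The calls of off-dox against no-dox tumors depended on single tumors, with 0 genes called without any 1 of no-dox tumors 1, 2 and 4, off-dox tumors 2, 3 and 4 or plus-dox tumor 4. Dropping no-dox tumor 3 left 1 call, dropping plus-dox tumor 3 left 19, and dropping off-dox tumor 1 gave 789. Cxcr2, Csf3r, Clec7a, Clec4e and Cd4 were thus lost from the calls in each of the first 7 cases.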

How the data were processed

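Poly(A) RNA from 12 bulk, unsorted tumors was sequenced as 50-base single-end reads without strand information. Per the paper's methods and the submitters' processing notes, the authors mapped reads to mm9 with TopHat 1.4.1 (Bowtie 0.12.8) and condensed RefSeq to 1 unstranded model per gene. The deposited tables hold 2 units, both made by the authors. One is the expected count, which the authors made as the base-wise coverage of a gene's unambiguous exonic span, not normalized and partly fractional. The other is RPKM per the file headers. How reads with several positions were treated is not given in the sources used here, so genes with near-copies or antisense partners are uncertain.

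Counts were rounded and tested with edgeR 4.0.16 (quasi-likelihood test, TMM, at least 10 counts summed over the tumors, 1 fit of the 3 groups, no covariates), with Benjamini-Hochberg adjustment over 17561 genes. The limits of a call were those of the authors. A positive log2 fold change means higher in the group named first, and the SE is the log2 fold change over the root of F. Fitted fold changes and p-values, adjusted or not, come from this test unless another tool is named. Shared sequence was counted as 50-base stretches over annotated transcripts of the same build.

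The 35 genes and the other lists were chosen with earlier results of these data known. All 35 are named, by role. Values per tumor are given for the 3 genes with the smallest unadjusted p in each comparison and the gene with the highest mean RPKM in each role. Of other lists, the called genes or those of the highest RPKM are named, and the rest named were chosen after their values were seen. Alternatives were DESeq2 1.42.0, limma-voom (limma 3.58.1) with tumor weights, RLE normalization, other count filters, unrounded counts, fits of 8 tumors, a stricter adjusted p of 0.05, the replicate number as a block, and tumors left out. The scripts were tested on simulated data. No library was a copy of another (mean chi-square per gene of 21.9 to 177.9 between tumors of a group). Depth per tumor was 19845923 to 33137609 counted reads. One allele of the line is not reported here.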

Additional observations from a re-analysis of the deposited data

Results flagged for a closer look

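In 6 of 105 sets of 4 tumors (35 genes in 3 groups) the highest tumor stood apart from the other 3 by Dixon's criterion, where chance gives about 1 in 20. Cd68 was 72.8 RPKM in off-dox tumor 3. Emr1 was 44.1 RPKM in plus-dox tumor 4. Arg1 was 90.1 RPKM in no-dox tumor 3, and Nos2 was 2.59 RPKM in off-dox tumor 2. Chi3l3 was 3.11 RPKM in plus-dox tumor 2, the tumor lowest in Epcam. Retnla was 17.0 RPKM in plus-dox tumor 4, the plus-dox tumor highest in adipocyte genes. Off-dox tumor 4, the off-dox tumor highest in adipocyte genes, was instead the lowest of all 12 tumors in Retnla.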

How the results depend on the processing

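For the 35 genes in plus-dox against no-dox tumors, limma-voom called 1 in place of 0. In off-dox against no-dox tumors DESeq2 called 1, limma-voom 2 and the fit without plus-dox tumor 2 and off-dox tumor 4 together 1 (Cd86, adjusted p = 0.077), and leaving out 1 tumor gave 0 to 3. Over all genes, plus-dox against no-dox tumors gave 128 calls by DESeq2, 112 by limma-voom and 0 to 3 with 1 tumor left out, beside 0. Off-dox against no-dox tumors gave 615 by DESeq2, 641 by limma-voom, 365 with at least 10 counts in every tumor, 122 without a count filter, 3 in a fit of the 8 tumors alone, 471 without plus-dox tumor 2 and off-dox tumor 4, 0 at an adjusted p under 0.05 and 0 to 789 with 1 tumor left out, beside 235. Off-dox against plus-dox tumors gave 6 by DESeq2 and 0 to 1 with 1 tumor left out, beside 0. The cause was not tested.

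The replicate block gave 0 calls over all genes in off-dox against no-dox tumors. Deviations of tumors with the same number had a mean correlation of -0.088 over 12 pairs beside 0.043 over 36 pairs with different numbers, and 2 of 12 tumors correlated best with their own number, so the numbers do not pair the tumors. The log2 difference kept its sign in every alternative for 24, 26 and 12 of 35 genes in plus-dox against no-dox, off-dox against no-dox and off-dox against plus-dox tumors. With 4 tumors a group, and 1 to 16 reads of Marco and 8 to 157 of Chi3l3 in a tumor, changes of these low genes were measured with SE of 0.59 or more on the log2 scale.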
